A study of Homo sapiens with 18 samples.

Results

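CDKN1A, MDM2, GDF15, BBC3, BAX and FAS are target genes of the tumour suppressor p53, and TNFRSF10A, TNFRSF10B, TNFRSF10C and TNFRSF10D encode the 4 membrane receptors of the death ligand TRAIL. The receptors were grouped apart here, which does not mean that p53 does not act on them. These 10 genes were taken by symbol from 3 deposited gene tables, which together list 37292 gene identifiers, and all 10 were found in every table. The genes were chosen by symbol with their levels and fold changes in these same 3 tables known. Those levels and fold changes are therefore given as a description, without p-values. Whether a gene passed the threshold over all genes (a call), or kept the call under other settings, is also description and no independent support.

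p53 is a transcription factor that is stabilised by DNA damage and other stress and switches on genes for cell-cycle arrest and cell death. CDKN1A encodes p21, an inhibitor of cyclin-dependent kinases, and MDM2 is the ubiquitin ligase that returns p53 to a low level. BBC3 (PUMA) and BAX act at the mitochondrial outer membrane, whereas FAS, TNFRSF10A (DR4) and TNFRSF10B (DR5) carry a death domain and pass the signal of FAS ligand or TRAIL to caspases. TNFRSF10C lacks an intracellular domain and TNFRSF10D has a truncated death domain, so both bind TRAIL as decoys. GDF15 is a secreted stress cytokine that p53 and the integrated stress response can each induce. LX-2 cells were immortalised with SV40 large T antigen, which binds p53. Whether p53 was functional was not tested in LX-2 cells or in the SW480 cells of the other groups. The levels of these genes are therefore not read as p53 activity.

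Polyadenylated RNA of 18 libraries was sequenced, with n = 3 in each of 6 groups. SW480-LM3 cells came from the colorectal carcinoma line SW480 by 3 rounds of selection for metastasis after injection into the spleen, and were compared with the parental SW480-P cells. LX-2 cells, a human hepatic stellate cell line, received exosomes containing NID1 for 48 h (EV-XP-NID1-LX-2) or control exosomes (EV-XP-LX-2). NID1 encodes nidogen-1, a basement membrane glycoprotein. What XP stands for is not stated. LV5-NID1 cells are SW480 cells that overexpress NID1 and were treated with GW4869, an inhibitor of neutral sphingomyelinase and of exosome release, for 72 h. They were compared with LV5 cells. The labels do not say whether LV5 cells were given GW4869, so overexpression and treatment cannot be told apart. Whether replicates were separate cultures is not stated either. The tests therefore set each difference between groups against how far these libraries scatter, and that scatter may be technical.

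Sequences of the kind that p53 binds were searched in the promoters of the 6 genes grouped as p53 targets, and not in those of the TRAIL receptors. A match is a likeness of sequence, and binding was not tested. The search took RefSeq windows of 300 bases (GRCh38.p14, 250 before to 50 after a transcription start) and the tandem p53 consensus of 20 bases without spacer, with at most 3 mismatches and the core C and G of both elements kept. The consensus reads the same on both strands. All 6 genes had windows, 11 in all, and FAS, MDM2 and GDF15 held a site. Of all 35116 windows 1.12% held a site, a share per window and not per gene. Capitals mark the site in each stretch:
FAS: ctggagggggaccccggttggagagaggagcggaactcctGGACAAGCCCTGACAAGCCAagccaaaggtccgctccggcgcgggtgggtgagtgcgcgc
MDM2: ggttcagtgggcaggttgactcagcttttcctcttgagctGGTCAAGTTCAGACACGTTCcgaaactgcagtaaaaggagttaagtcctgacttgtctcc
GDF15: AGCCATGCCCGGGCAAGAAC
The FAS stretch is chr10:88991269-88991368 on the plus strand, within an intron of 11 of the 13 GENCODE 29 transcripts of FAS that span it. Its site has 2 mismatches and begins 122 bases before a start. The MDM2 stretch, chr12:68808883-68808982 on the plus strand, is intronic in all 7 transcripts that span it, and its site has 2 mismatches. In GDF15 the site (chr19:18386186-18386205, plus strand, 3 mismatches) begins at base 29 of the transcript and overlaps its start of translation. No match in the windows of CDKN1A, BBC3 and BAX says only that these letters are not there.

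The SW480-LM3 and SW480-P table holds a CPM-like signal, that is, reads divided by 1 factor per library, with 15531517 to 16586016 reads per SW480-LM3 library and 15504205 to 18965163 per SW480-P library. The other tables hold TPM, whose depth is unknown. NID1 ran from 348 to 379 TPM in LV5-NID1 libraries, against 0 to 0.04 TPM in LV5 libraries. SW480-LM3 libraries had 44.7 to 49.1 CPM-like signal of NID1, against 0.35 to 0.58 in SW480-P libraries. In EV-XP-NID1-LX-2 libraries NID1 was at 18.0 to 22.6 TPM, below the 25.1 to 26.0 TPM of EV-XP-LX-2 libraries. Across 14734 genes, the mean profile of SW480-LM3 had a Spearman rho of 0.694 with LV5, the SW480 cells of another table, and of 0.713 with the stellate EV-XP-LX-2. SW480-P had 0.886 with LV5 and 0.794 with EV-XP-LX-2. These are descriptions over genes of separately normalised tables. CDH1, the epithelial cadherin, had 141 to 153 CPM-like signal in SW480-LM3 and 1.11 to 1.97 in SW480-P, and at most 0.71 TPM in the LV5-NID1 and LV5 libraries. VIM, a mesenchymal filament protein, had 1196 to 1430 TPM in EV-XP-NID1-LX-2 and 1798 to 1956 TPM in EV-XP-LX-2 libraries, and summed stellate and stromal markers were 1653 to 1963 against 2350 to 2519 TPM, with 4 of 8 tested lower and 1 higher. Among all genes tested in that comparison, 24.6% were lower and 17.8% higher. LRAT, a marker of quiescent stellate cells, was at most 0.03 TPM in LX-2 libraries. Mitochondrially encoded genes took 3.54 to 3.80% of TPM in EV-XP-NID1-LX-2 and 5.98 to 6.20% in EV-XP-LX-2 libraries. The part of these shifts in the LX-2 results was not tested beyond rescaling without mitochondrial genes. LV5-NID1 replicate 3 stood apart from its group: in the 20% of genes richest in GC its median deviation from the group mean was -0.24 on the log2 scale, against 0.16 and 0.08 in replicates 1 and 2. EV-XP-NID1-LX-2 replicate 2 deviated in the same way by -0.15. For the 10 genes, calls that change without these libraries are given below.

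CDKN1A was lower in SW480-LM3 and in LV5-NID1 cells. SW480-LM3 libraries had 6.40, 8.54 and 7.21 CPM-like signal, against 19.9, 20.3 and 22.5 in SW480-P libraries, so the parental group was 2.83-fold higher, and the groups did not overlap. The log2 fold change, SW480-LM3 minus SW480-P, was -1.39 (SE 0.11), on log2 of the value plus 1 as for all fold changes here. LV5-NID1 libraries had 35.3, 31.5 and 32.6 TPM of CDKN1A, against 73.1, 80.2 and 75.8 TPM in LV5 libraries (log2 fold change -1.18, SE 0.07). All 3 LV5-NID1 libraries lay below all 3 LV5 libraries, and replicate 3 lay within its group for this gene. The log2 fold change was -1.17 without replicate 3 and -1.03 with the GC trend removed. In LX-2 cells the level was high and the difference small, with 151, 131 and 146 TPM in EV-XP-NID1-LX-2 against 119, 116 and 131 TPM in EV-XP-LX-2 libraries (log2 fold change 0.22, SE 0.07). Those groups were apart by less than 1 TPM at their nearest libraries, and the call was lost under 8 of 16 alternatives. In bulk RNA, fewer cells expressing a gene and less RNA per cell cannot be told apart.

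MDM2 averaged 44.1 ± 4.79 CPM-like signal in SW480-LM3 and 38.4 ± 0.92 in SW480-P cells (SD, n = 3 each; log2 fold change 0.19, SE 0.07), a call that was lost under 6 of 18 alternatives. The transcript has 41.9% GC, and with the GC trend of each library removed that value was 0.53. EV-XP-NID1-LX-2 cells had 41.2 ± 6.01 TPM against 43.5 ± 1.38 TPM in EV-XP-LX-2 cells, and LV5-NID1 cells had 21.1 ± 1.37 TPM against 22.9 ± 2.58 TPM in LV5 cells. Neither difference passed the threshold. MDM2 overlaps AC025423.2 on the same strand, which reached 54.7 TPM in the LX-2 table, so the reads of these genes may have been split between them. MDM4, which binds and inhibits p53, was lower in SW480-LM3 cells at 21.0 ± 1.25 CPM-like signal, against 29.4 ± 1.90 in SW480-P cells (adjusted p = 6.24e-05), and passed the threshold in neither other comparison.

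GDF15 had the largest log2 fold change of the 10 genes both in SW480-LM3 against SW480-P and in LV5-NID1 against LV5, with opposite signs. SW480-LM3 libraries held 60.3, 67.5 and 66.6 CPM-like signal, against 4.34, 2.45 and 4.02 in SW480-P libraries, or 1037 to 1228 reads against 42 to 61 reads. That is 18-fold higher in SW480-LM3 cells (log2 fold change 3.86, SE 0.14), with no overlap. With the GC trend removed the log2 fold change was 3.19. In LV5-NID1 libraries it fell to 21.0, 16.4 and 4.81 TPM, against 49.6, 51.1 and 45.7 TPM in LV5 libraries (log2 fold change -1.93, SE 0.48). Every LV5-NID1 library was below every LV5 library, but replicate 3 was far below the other two. Without replicate 3 the log2 fold change was -1.34 and the call remained, whereas the call was lost under 8 of 16 alternatives, among them leaving out LV5-NID1 replicate 2 or any 1 LV5 library. The GDF15 transcript has 62.9% GC, and with the GC trend removed the log2 fold change in LV5-NID1 cells was -1.55; the part of GC content in the fall was not otherwise tested. EV-XP-NID1-LX-2 libraries had 28.0, 20.8 and 27.6 TPM of GDF15, against 33.3, 36.5 and 35.4 TPM in EV-XP-LX-2 libraries (log2 fold change -0.46, SE 0.11). Here too the groups did not overlap, and EV-XP-NID1-LX-2 replicate 2 was the lowest. Without it the log2 fold change was -0.32 and the call remained. Without EV-XP-LX-2 replicate 2 the call was lost at -0.43, and with the GC trend removed the log2 fold change was -0.25.

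**Figure D1:**
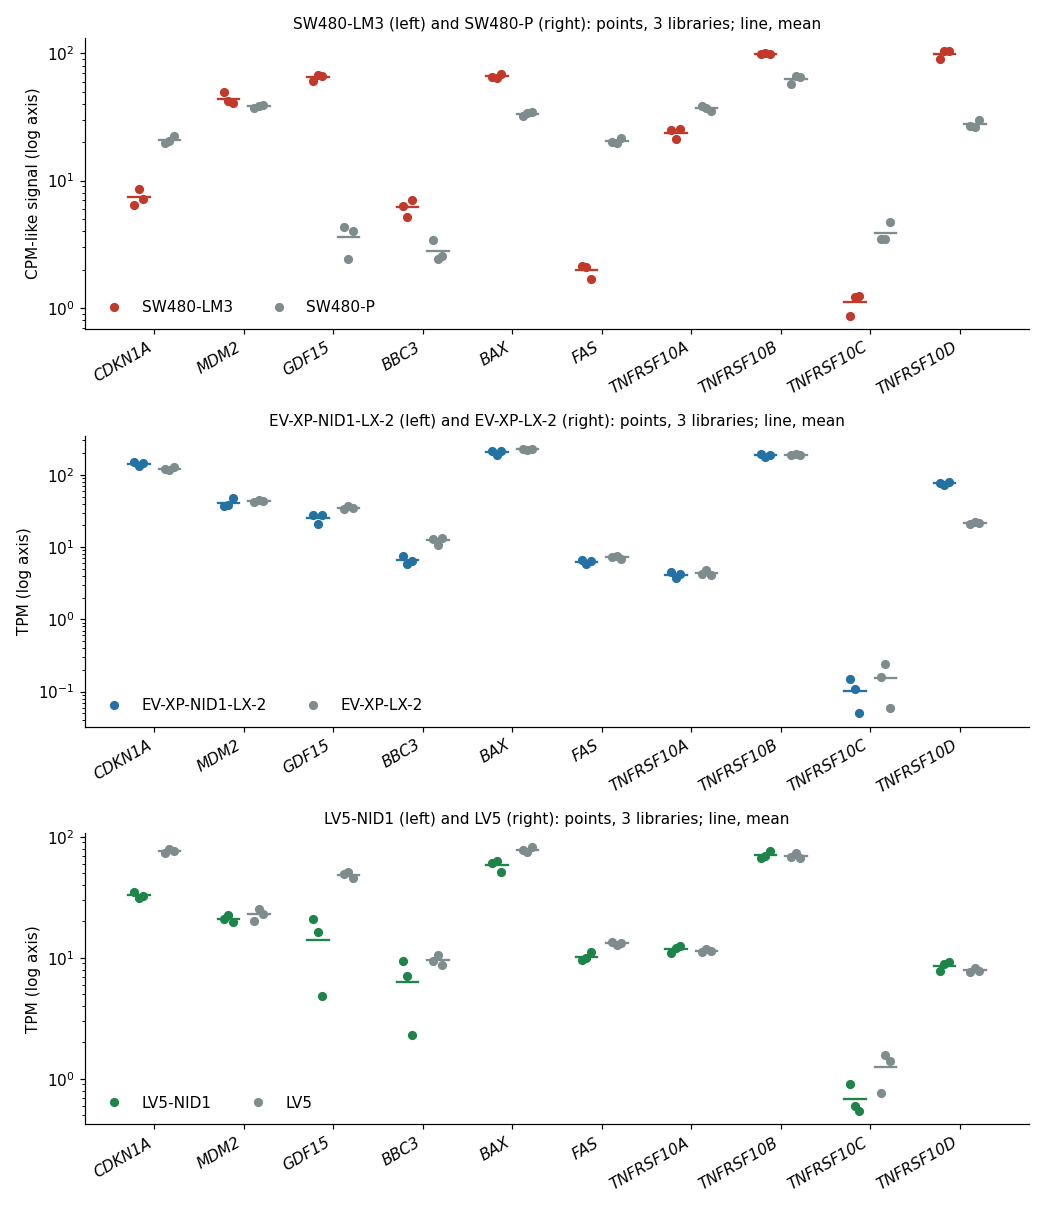
Values of the 10 genes in each library on log axes, CPM-like signal for SW480-LM3 (left) and SW480-P (right) and TPM for EV-XP-NID1-LX-2 and EV-XP-LX-2 and for LV5-NID1 and LV5. Points are 3 libraries per group and lines are means. GDF15 and FAS part the SW480-LM3 and SW480-P libraries furthest, and TNFRSF10D parts the LX-2 groups.

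BBC3 and BAX, which act in the mitochondrial pathway of apoptosis, were higher in SW480-LM3 cells. BAX had 64.96, 63.9 and 68.8 CPM-like signal in SW480-LM3 libraries, against 32.4, 33.8 and 34.6 in SW480-P libraries, 1.96-fold higher (log2 fold change 0.95, SE 0.06). BBC3 had 6.28, 5.15 and 7.05 CPM-like signal, against 3.42, 2.45 and 2.54 in SW480-P libraries (log2 fold change 0.91, SE 0.15). Neither gene's groups overlapped. GC-rich genes were higher in SW480-LM3 libraries as a whole, with a median log2 fold change of 0.57 in the richest 20% of genes and -0.45 in the poorest 20%, and BBC3 has the most GC of the 10 transcripts at 69.7%. With the GC trend removed, BBC3 was at 0.20 and no longer called, and BAX was at 0.38 and still called.

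In LX-2 cells BBC3 was called and BAX was not. EV-XP-NID1-LX-2 libraries had 7.60, 5.89 and 6.41 TPM of BBC3, against 12.97, 10.8 and 13.5 TPM in EV-XP-LX-2 libraries (log2 fold change -0.82, SE 0.12). The groups did not overlap, and the call held under all 16 alternatives, with the log2 fold change between -0.91 and -0.55, and at -0.75 without EV-XP-NID1-LX-2 replicate 2. BAX did not pass the threshold, with 206 ± 15.9 TPM in EV-XP-NID1-LX-2 against 227 ± 4.82 TPM in EV-XP-LX-2 cells, and its difference changed sign once the GC trend was removed. LV5-NID1 libraries had 61.3, 62.6 and 51.1 TPM of BAX, against 77.9, 75.1 and 83.1 TPM in LV5 libraries. That fall (log2 fold change -0.43, SE 0.09) was -0.34 without replicate 3 and -0.25 with the GC trend removed. The call was lost under 7 of 16 alternatives. BBC3 in LV5-NID1 cells was not called: its libraries were at 9.36, 7.15 and 2.31 TPM, against 9.37, 10.6 and 8.81 TPM in LV5 libraries. Without replicate 3, which holds the lowest value, its log2 fold change was -0.20 instead of -0.69. With the GC trend removed it was 0.05, so its sign changed.

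FAS was far lower in SW480-LM3 cells. Its signal fell to 2.15, 2.11 and 1.68 in SW480-LM3 libraries (37, 36 and 31 reads), against 20.1, 19.6 and 21.4 in SW480-P libraries (283, 337 and 304 reads), so the parental cells were 10.3-fold higher (log2 fold change -2.85, SE 0.12). The first symbol column of that table gives this gene as FAS and the other gives FASN for the same identifier; the identifier is that of FAS, and FASN has a row of its own. LV5-NID1 libraries had 9.67, 9.97 and 11.1 TPM of FAS, against 13.4, 12.8 and 13.3 TPM in LV5 libraries, with no overlap (log2 fold change -0.34, SE 0.07). The call was lost under 8 of 16 alternatives. With 39.1% GC, FAS has the least of the 10 transcripts, and the log2 fold change was -0.41 with the GC trend removed and -0.39 without replicate 3. In LX-2 cells FAS was near 7 TPM and not called, with 6.30 ± 0.39 TPM in EV-XP-NID1-LX-2 and 7.26 ± 0.28 TPM in EV-XP-LX-2 cells. ACTA2 overlaps FAS on the other strand and was at most 1.2 CPM-like signal in the SW480-LM3 and SW480-P libraries, but reached 14.2 TPM in the LX-2 table.

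**Figure D2:**
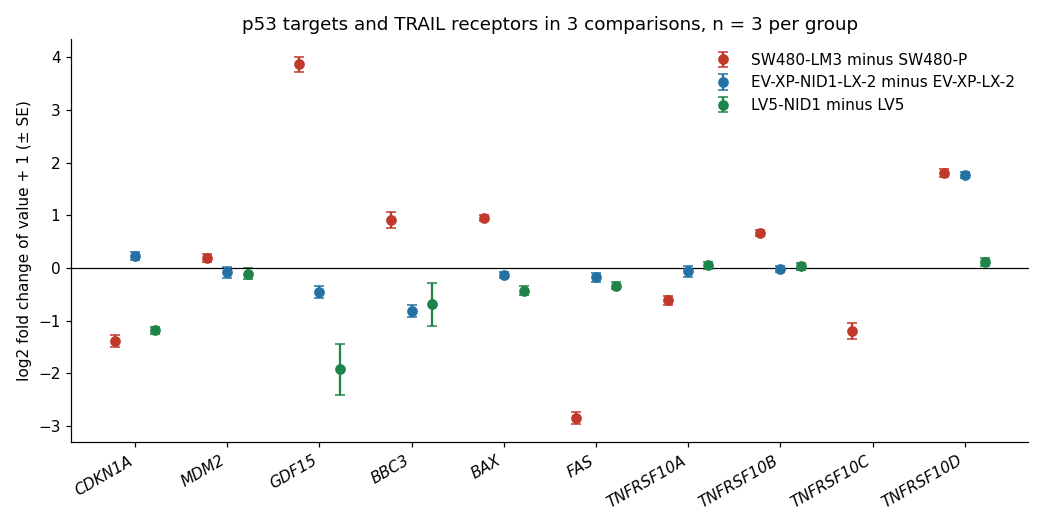
Log2 fold change of value plus 1 (points) with its standard error (bars) for the 10 genes in the 3 comparisons, n = 3 per group. GDF15 is at 3.86 for SW480-LM3 minus SW480-P and at -1.93 for LV5-NID1 minus LV5, and TNFRSF10D is at 1.80 and 1.76 for SW480-LM3 and EV-XP-NID1-LX-2. TNFRSF10C has no point in the TPM comparisons, where it did not pass the filter on low values.

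The decoy TNFRSF10D was higher in EV-XP-NID1-LX-2 and in SW480-LM3 cells. EV-XP-NID1-LX-2 libraries had 76.3, 73.4 and 78.6 TPM, against 21.1, 22.3 and 21.8 TPM in EV-XP-LX-2 libraries, 3.50-fold higher (log2 fold change 1.76, SE 0.05). It was likewise higher in SW480-LM3 libraries, which had 90.6, 104 and 104 CPM-like signal, against 26.9, 26.4 and 30.03 in SW480-P libraries (3.58-fold, log2 fold change 1.80, SE 0.07). The alternatives left both values between 1.60 and 2.08. In LV5-NID1 libraries it was at 7.78, 8.90 and 9.21 TPM, against 7.69, 8.18 and 7.85 TPM in LV5 libraries, and was not called.

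The death receptors did not follow it in LX-2 cells. TNFRSF10B had 197, 175 and 192 TPM in EV-XP-NID1-LX-2 libraries against 188, 196 and 187 TPM in EV-XP-LX-2 libraries, and the groups overlapped. TNFRSF10A averaged 4.16 ± 0.41 TPM in EV-XP-NID1-LX-2 and 4.39 ± 0.39 TPM in EV-XP-LX-2 cells. As TPM are values per length, levels of the 4 receptors can be set side by side within a library. The decoys TNFRSF10C and TNFRSF10D held 28.5% ± 0.84 of the receptors' summed TPM in EV-XP-NID1-LX-2 cells and 10.1% ± 0.15 in EV-XP-LX-2 cells (SD, n = 3 each). Summed TPM of the 4 receptors was 268 ± 14.2 in EV-XP-NID1-LX-2 and 217 ± 5.80 in EV-XP-LX-2 cells. In LV5-NID1 cells the decoys held 10.1% ± 0.30 and in LV5 cells 10.2% ± 0.46, with sums of 92.4 ± 6.13 and 90.2 ± 3.91 TPM.

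**Figure D3:**
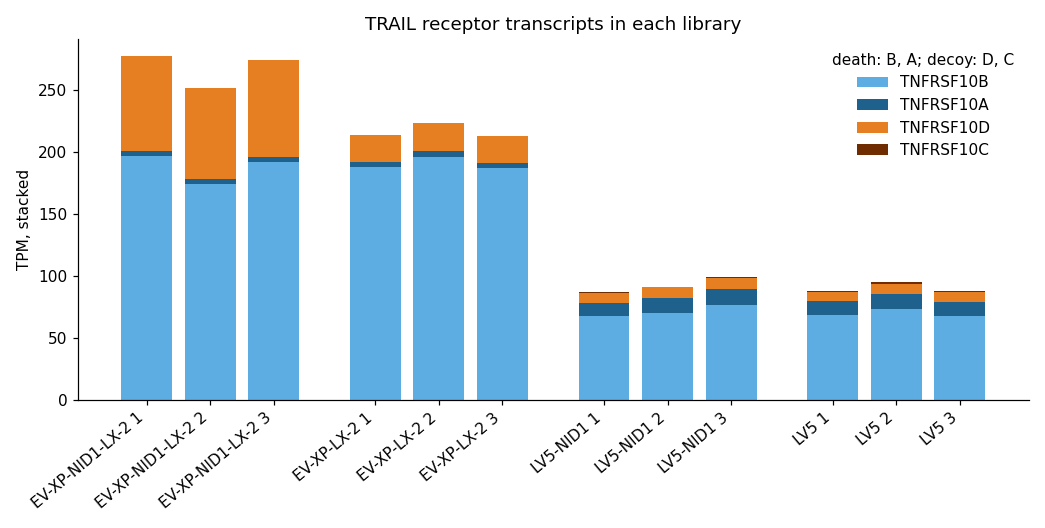
TPM of the 4 TRAIL receptors stacked for each EV-XP-NID1-LX-2, EV-XP-LX-2, LV5-NID1 and LV5 library, with TNFRSF10B at the bottom, then TNFRSF10A, TNFRSF10D and TNFRSF10C. TNFRSF10B makes up most of every bar, and the TNFRSF10D part is 73.4 to 78.6 TPM in EV-XP-NID1-LX-2 libraries and 21.1 to 22.3 TPM in EV-XP-LX-2 libraries.

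SW480-LM3 and SW480-P cells differed at all 4 receptors, and not in a single direction, where 87.8% of all genes tested were called, 43.9% each way. TNFRSF10B was higher, at 99.6, 100.1 and 98.7 CPM-like signal in SW480-LM3 against 57.2, 66.1 and 65.2 in SW480-P libraries (log2 fold change 0.66, SE 0.06). TNFRSF10A was lower, at 24.8, 21.2 and 25.3 CPM-like signal in SW480-LM3 against 38.8, 37.0 and 35.1 in SW480-P libraries (log2 fold change -0.62, SE 0.08). The decoy TNFRSF10C was lower as well, at 0.87, 1.23 and 1.25 CPM-like signal in SW480-LM3 (15, 21 and 23 reads) against 3.49, 3.50 and 4.72 in SW480-P (49, 60 and 67 reads). Its log2 fold change was -1.21 (SE 0.15) with the pseudocount of 1 and -1.82 in DESeq2 on the recovered reads. In the TPM tables TNFRSF10C was at most 0.24 TPM in LX-2 libraries, and it had 0.54 to 0.91 TPM in LV5-NID1 against 0.77 to 1.57 TPM in LV5 libraries, too low to be tested. LV5-NID1 and LV5 cells did not differ beyond the threshold in TNFRSF10A (11.9 ± 0.78 and 11.4 ± 0.34 TPM) or TNFRSF10B (71.2 ± 4.91 and 69.5 ± 3.16 TPM). No window of 50 bases in a GENCODE 29 transcript of any of the 4 receptors occurs in another of them, and genes on the opposite strand overlap TNFRSF10A and TNFRSF10B. On the same strand AC107959.4 and AC107959.5 overlap TNFRSF10C, with up to 3.05 TPM in the LX-2 table and 4.79 TPM in the LV5 table, above TNFRSF10C itself, so its reads are uncertain. Whether reads were counted by strand is not given in the sources used here.

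Counted over the 10 genes, all 10 were called in SW480-LM3 against SW480-P, 6 higher and 4 lower, where 87.8% of all 14527 genes tested were called (43.9% higher, 43.9% lower) and 23.9% were called and at least 1 on the log2 scale higher. None of the 10 overlapped between these groups, as was so for 87.6% of all genes. A call is a Benjamini-Hochberg adjusted p under 0.05 over all genes in limma's test. In EV-XP-NID1-LX-2 against EV-XP-LX-2, 9 of the 10 passed the filter on low values and 4 of them were called, CDKN1A and TNFRSF10D higher and GDF15 and BBC3 lower, where 42.3% of all genes tested were called. A call at least 1 on the log2 scale higher, as for TNFRSF10D, was made for 0.557% of all genes. The groups did not overlap for 6 of the 9, and for 55.9% of all genes. In LV5-NID1 against LV5, 4 of 9 were called, all lower (CDKN1A, GDF15, BAX and FAS), where 16.6% of all genes tested were called, 7.27% higher and 9.32% lower, and 1.28% were called with a log2 fold change of -1 or below. The groups did not overlap for 4 of the 9, and for 43.3% of all genes. The count called was 4 without LV5-NID1 replicate 3 and 4 with the GC trend removed, but 1 or 2 without any other single library of this comparison. Without EV-XP-LX-2 replicate 2 the count in LX-2 cells was 2. Nothing is read from these counts, since the genes were listed with these comparisons known. The members' median log2 fold change was 0.42, -0.08 and -0.34 in the 3 comparisons, beside -0.004, -0.048 and 0.006 over all genes tested.

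By level per length, BAX and TNFRSF10B led in both LX-2 groups, with 206 and 188 TPM in EV-XP-NID1-LX-2 and 227 and 191 TPM in EV-XP-LX-2 cells, and their ranges over libraries overlapped in EV-XP-NID1-LX-2 cells only. CDKN1A came next, and TNFRSF10C was last in all 4 groups with TPM. In LV5-NID1 cells TNFRSF10B (71.2 TPM) and BAX (58.3 TPM) led, followed by CDKN1A at 33.1 TPM, below the lowest library of BAX. In LV5 cells BAX, CDKN1A and TNFRSF10B lay within 67.2 to 83.1 TPM and GDF15 followed at 48.8 TPM.

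Other p53 targets, a list of 35 genes chosen with earlier results of these data known, moved both ways in SW480-LM3 cells. Of 32 tested, 14 were higher and 14 lower than in SW480-P, with a median log2 fold change of 0.01. Of all genes tested, 43.9% were higher there and 43.9% lower. Genes named from this list and the further lists, TNFSF10 and the markers apart, were picked for their smallest adjusted p. Their p-values are therefore description and no independent support. GADD45A, a stress sensor that binds PCNA, was 7.28-fold higher at 148 CPM-like signal in SW480-LM3 against 20.4 in SW480-P (adjusted p = 1.31e-14). EPHA2, a receptor tyrosine kinase, was 3.80-fold higher (adjusted p = 2.61e-14), while RPS27L, a ribosomal protein paralogue, was 6.19-fold higher in SW480-P (adjusted p = 2.94e-14). In EV-XP-NID1-LX-2 cells 10 of 33 were higher and 8 lower than in EV-XP-LX-2 cells, with a median of 0.07. Beside this, 17.8% of all genes were higher and 24.6% lower. The counts became 13 and 10 once EV-XP-NID1-LX-2 replicate 2 was left out. FDXR, a mitochondrial reductase, and XPC, a DNA damage sensor, fell by 0.78 and 0.64 on the log2 scale (adjusted p = 0.000997 and 0.00102), and APAF1, the apoptosome scaffold, rose by 0.52 (adjusted p = 0.00124).

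In LV5-NID1 cells 8 of 32 other p53 targets were lower and 1 higher than in LV5 cells, with a median of -0.33, where 9.32% of all genes were lower and 7.27% higher. DDB2, a damage recognition factor, fell to 70.2, 74.0 and 78.7 TPM, against 106, 110 and 109 TPM in LV5 libraries (log2 fold change -0.54, adjusted p = 0.00402). GADD45A had 24.6, 22.7 and 22.4 TPM in LV5-NID1 against 32.2, 33.0 and 33.2 TPM in LV5 libraries (adjusted p = 0.00627). BTG2, an antiproliferative gene, had 5.99, 5.79 and 5.19 TPM against 9.44, 9.07 and 8.86 TPM in LV5 libraries (adjusted p = 0.0071). None of these 3 genes' groups overlapped. Without LV5-NID1 replicate 3 the count was 16 lower and 0 higher of 32, and with the GC trend removed 15 lower and 1 higher. Leaving out LV5-NID1 replicate 1 or 2 gave 6 lower each, and LV5 replicates 1, 2 or 3 gave 3, 4 and 5 lower, with 0 higher in each. Over the 38 genes of this list and the p53 targets among the 10 that were tested, LV5-NID1 replicates 1, 2 and 3 were below the LV5 mean for 31, 33 and 31 genes, with median log2 ratios of -0.28, -0.33 and -0.44. Of all 15508 genes tested, 47.8, 49.2 and 47.4% were below the LV5 mean. The TRAIL receptors were not among the 38 genes. In LV5-NID1 against LV5, TNFRSF10A, TNFRSF10B and TNFRSF10D had log2 fold changes of 0.05, 0.03 and 0.11 and were not called. Both the list and the 10 genes were chosen with results of these data known, so nothing is read from these counts.

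**Figure D4:**
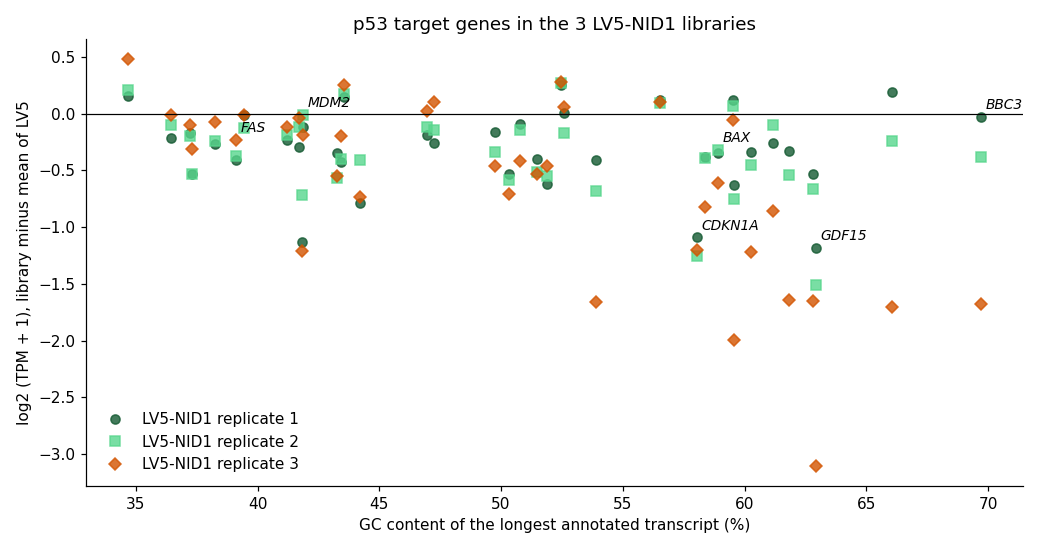
Log2 (TPM + 1) of 38 p53 target genes in each LV5-NID1 library minus the mean of the 3 LV5 libraries, against the GC content of the longest annotated transcript in percent. Those of the 10 genes that were grouped as p53 targets are named. Replicate 3 leaves the other replicates at the GC-rich end (GDF15 at -3.1 against -1.18 and -1.51), while CDKN1A lies at -1.09, -1.25 and -1.2.

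Genes that act on p53 were also followed. Of all genes tested, 43.9% were higher and 43.9% lower in SW480-LM3. In EV-XP-NID1-LX-2 these shares were 17.8% and 24.6%, and in LV5-NID1 7.27% and 9.32%. In SW480-LM3 cells 8 of 16 tested were higher and 8 lower than in SW480-P. HIPK2, a kinase of p53, was 14.8-fold higher (adjusted p = 2.6e-15), the acetyltransferase EP300 was 7.13-fold higher (adjusted p = 3.1e-14) and the deubiquitinase USP7 was 2.62-fold higher (adjusted p = 2.02e-13). In EV-XP-NID1-LX-2 cells 4 of 16 were higher and 3 lower than in EV-XP-LX-2, and 2 were higher once replicate 3 of EV-XP-NID1-LX-2 or replicate 2 of EV-XP-LX-2 was left out. The checkpoint kinase CHEK2 fell by 0.55 on the log2 scale (adjusted p = 0.00116), and the deacetylase SIRT1 rose by 0.45 (adjusted p = 0.00123). Of 15 tested in LV5-NID1 cells, the damage kinase ATM was the single gene called with all libraries, with 40.1, 46.5 and 41.4 TPM against 27.6, 31.1 and 31.6 TPM in LV5 libraries (adjusted p = 0.0162). No gene of the list was called without LV5-NID1 replicate 2, LV5 replicate 1 or LV5 replicate 2, and 2 were higher and 1 lower without LV5-NID1 replicate 3. With the GC trend removed 2 were higher and 2 lower.

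The ligands and downstream genes of the death receptors form a further list of 19. Beside its counts, 43.9% of all genes tested were higher and 43.9% lower in SW480-LM3. These shares were 17.8% and 24.6% in EV-XP-NID1-LX-2, and 7.27% and 9.32% in LV5-NID1. TNFSF10, which encodes TRAIL, had 30.9, 30.3 and 29.7 CPM-like signal in SW480-LM3 libraries against 1.78, 2.74 and 2.12 in SW480-P libraries, 13.7-fold higher (adjusted p = 2.26e-12). It was at most 0.15 TPM in EV-XP-NID1-LX-2 against 0.58 TPM in EV-XP-LX-2 libraries, and at most 0.06 TPM in LV5-NID1 against 0.24 TPM in LV5 libraries, too low to be tested. Of the 19, 8 were higher and 9 lower in SW480-LM3 than in SW480-P. TNFRSF11B, a secreted receptor that binds TRAIL, had 0.29, 0.12 and 0.22 CPM-like signal in SW480-LM3 against 25.8, 24.9 and 27.4 in SW480-P. As the SW480-LM3 values are near 0, its 125-fold ratio of means is uncertain (log2 fold change -4.49, adjusted p = 8.47e-14). CYCS (cytochrome c) was 3.87-fold higher in SW480-P (adjusted p = 1.85e-15), and BID, which caspase-8 cleaves, was 3.06-fold higher there (adjusted p = 4.6e-13). In EV-XP-NID1-LX-2 cells 5 of 17 were higher and 5 lower than in EV-XP-LX-2 cells. The caspase-8 inhibitor CFLAR had 35.3, 36.7 and 33.1 TPM against 55.8, 51.2 and 47.7 TPM in EV-XP-LX-2 libraries (adjusted p = 0.00144), and BIRC2 fell by 0.36 on the log2 scale (adjusted p = 0.000748). In LV5-NID1 cells 4 of 17 were lower and 0 higher than in LV5. The count stayed at 4 without LV5-NID1 replicate 3 or with the GC trend removed, and was 2 without LV5-NID1 replicate 2 or without a low filter. It was 1 without LV5-NID1 replicate 1, without any 1 LV5 library or with a replicate block. CASP9, the initiator caspase of the apoptosome, averaged 22.5 ± 3.08 TPM, against 53.9 ± 3.55 TPM in LV5 cells (log2 fold change -1.23, adjusted p = 0.00247), and TNFRSF1A and the adaptor FADD fell by 0.29 and 0.27 on the log2 scale (adjusted p = 0.0265 and 0.0388).

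**Figure D5:**
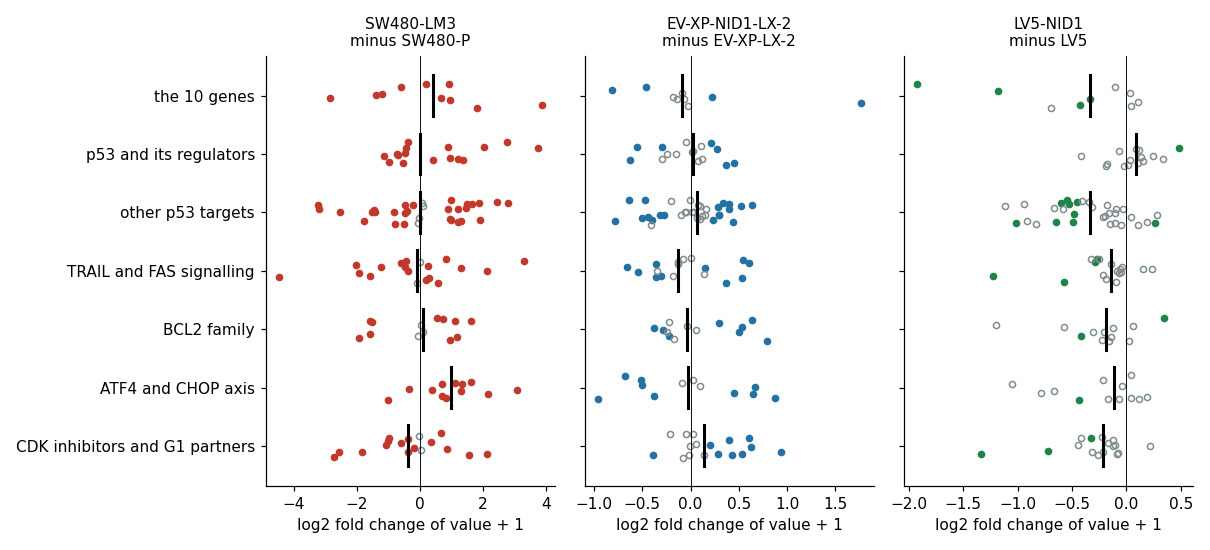
Log2 fold change of value plus 1 for each tested gene of the 10 and of 6 related lists, by comparison, with a separate x axis per panel. Filled points passed the adjusted threshold, open points did not, and black bars are medians. In LV5-NID1 minus LV5 the median of other p53 targets is -0.33, and in SW480-LM3 minus SW480-P that of the ATF4 and CHOP axis is 0.97.

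The genes whose 3 log2 fold changes lay nearest to those of a member were found by Euclidean distance among 11558 genes tested in all 3 tables. For CDKN1A these were NRGN (distance 0.24), a neuronal calmodulin-binding protein, and CITED2 (0.29), a transcriptional co-regulator. GDF15 had no close match, HSPG2 (0.93) and ADGRG1 (0.96) being nearest, nor had TNFRSF10D, for which they were KLF10 (0.95) and PPP1R10 (1.07). The likeness rests on 3 values per gene.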

How the data were processed

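Per the labels' protocols, oligo(dT)-purified RNA was fragmented and primed with random hexamers. HISAT2 2.1.0 and Bowtie2 2.3.5 are named in the submitters' processing notes, with no role; the sources used here do not give build, annotation or counting tool. The deposited signal of the SW480-LM3 and SW480-P table behaves as reads divided by 1 factor per library (99.99 to 100% of values whole within 0.05 read), over 15543 genes; its second symbol column differs from the first, used here, for 1596 genes. The deposited values of the other tables are TPM, over 31585 and 32555 genes, with no stated filter. Each table was normalised separately and tested alone.

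The main test was limma 3.58.1 (R 4.3.3) with a variance trend on log2(value + 1), which understates the change of low genes, on genes that reached a value of 1 in no fewer than 3 libraries, without a replicate block. Threshold: Benjamini-Hochberg adjusted p under 0.05 over all genes. The 10 genes and all lists were chosen with earlier results of these data known. Text names the 10, MDM4, TNFSF10, up to 3 called genes of smallest adjusted p per list, the most abundant marker per list and 2 nearest genes for CDKN1A, GDF15 and TNFRSF10D; CDH1, LRAT and ACTA2 were added after their values were seen. Some genes that this rule names are not reported here. Alternatives were a pseudocount of 0.1 or 5, dropping the low filter, keeping genes with a mean of 5 or more, quantile, median-ratio and library-total scaling, no variance trend, a replicate block, each library left out, rescaling without mitochondrial genes, and, on recovered reads, edgeR 4.0.16 and DESeq2 1.42.0, which called 12687 and 12386 genes. Removal of a GC trend was added after seeing the data; 97.5, 95.1 and 93.5% of genes tested had a GC value from the longest GENCODE 29 transcript. The scripts were tested on simulated data.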

Additional observations from a re-analysis of the deposited data

How the results depend on the processing

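Of 465 values of the members' log2 fold changes under alternatives, 424 kept their direction and side of the threshold or stayed uncalled, 39 lost the call, 2 gained it (BAX in LX-2 cells with quantile normalisation at -0.24, FAS there with the GC trend removed at -0.25) and 0 reversed a called direction. For LV5-NID1 against LV5, 2572 genes were called, 1532 without a low filter and 890 with a replicate block, and 713 to 3325 with a library left out, lowest without LV5 replicate 1 and highest without LV5-NID1 replicate 3. Members called there were 4, but 1 without a low filter, 1 with a replicate block and 1 to 4 with a library left out. In LX-2 cells 6687 genes were called and 5956 with the block, and members called were 4 with the block and 2 to 4 with a library left out. In SW480-LM3 against SW480-P, 12749 genes were called and 12725 with the block, under which all 10 members were called. Same-numbered libraries did not deviate together (r from -0.047 to 0.063), so the block pairs libraries by number alone. The cause of these changes in counts was not tested. Dividing each SW480 library by its own total moved the median log2 fold change of all genes from -0.004 to 0.259 and no member's direction. In LV5-NID1 against LV5, 43.8% of called genes were higher, and 54.7% after quantile normalisation. TPM carry no depth, so genes near 0 such as TNFRSF10C have no counting interval.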

Other observations

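Genes of the ATF4 and CHOP axis, the transcription factors of the integrated stress response that can also induce GDF15, BBC3 and TNFRSF10B, were called in both directions in SW480-LM3 against SW480-P: 10 of 12 were higher and 2 lower, with a median log2 fold change of 0.97, where 43.9% of all genes were higher and 43.9% lower. ATF4 had 319, 325 and 338 CPM-like signal in SW480-LM3 against 157, 147 and 148 in SW480-P libraries (adjusted p = 8.71e-13), TRIB3 was 4.63-fold higher (adjusted p = 3.86e-14) and DDIT4 3.12-fold higher (adjusted p = 3.82e-13). In EV-XP-NID1-LX-2 cells 4 of 12 were higher and 5 lower than in EV-XP-LX-2 cells, beside 17.8% and 24.6% of all genes. ATF4 rose by 0.45 on the log2 scale (adjusted p = 3e-04) and PPP1R15A by 0.67 (adjusted p = 0.000425), while DDIT3, which encodes CHOP, had 98.3, 104 and 99.9 TPM against 147, 141 and 144 TPM in EV-XP-LX-2 libraries (adjusted p = 0.00034). Of all genes tested in LV5-NID1 against LV5, 7.27% were higher and 9.32% lower. In LV5-NID1 cells 0 of 12 were higher and 1 lower than in LV5, which was ATF3 (log2 fold change -0.43, adjusted p = 0.0394). That count was 3 without LV5-NID1 replicate 1 or 3, or with the GC trend removed. It was 0 without LV5-NID1 replicate 2, without any 1 LV5 library, without a low filter or with a replicate block.

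BCL2 family genes split in both directions in SW480-LM3 cells, with 6 of 13 higher and 4 lower than in SW480-P. There 43.9% of all genes tested were higher and 43.9% lower. The shares were 17.8% and 24.6% in EV-XP-NID1-LX-2, and 7.27% and 9.32% in LV5-NID1. The antiapoptotic BCL2L1 had 413, 432 and 444 CPM-like signal in SW480-LM3 against 142, 139 and 139 in SW480-P libraries (adjusted p = 9.3e-15), and BAD was 3.10-fold higher in SW480-P (adjusted p = 2.93e-11). In EV-XP-NID1-LX-2 cells 5 of 13 were higher and 3 lower than in EV-XP-LX-2, and 0 were lower without any 1 EV-XP-LX-2 library. BCL2 had 7.64, 6.72 and 7.51 TPM against 3.77, 4.05 and 3.51 TPM (adjusted p = 0.000998), HRK was 1.85-fold higher (adjusted p = 0.00284) and PMAIP1 (NOXA) was 1.23-fold higher (adjusted p = 0.00335). In LV5-NID1 cells BCL2L11 (BIM) rose by 0.35 and BAK1 fell by 0.42 on the log2 scale (adjusted p = 0.0388 and 0.0443), 1 of 12 each way. Without LV5-NID1 replicate 3 the list had 1 higher and 3 lower, and without any other single library, or with a replicate block, 0 of either. With the GC trend removed 2 were higher and 4 lower, and without a low filter 0 of either.

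Among CDK inhibitors and their G1 partners, 8 of 17 were higher and 1 lower in EV-XP-NID1-LX-2 than in EV-XP-LX-2 cells, where 17.8% of all genes were higher and 24.6% lower. The lower call was lost without any 1 library except EV-XP-NID1-LX-2 replicate 1. PCNA was 1.52-fold (adjusted p = 0.000483), CDK6 1.56-fold (adjusted p = 0.000631) and CCNE2 1.46-fold higher (adjusted p = 0.000445). In SW480-LM3 cells 5 of 17 were higher and 10 lower than in SW480-P, beside 43.9% of all genes each way. CDK6 was 2.96-fold higher (adjusted p = 7.79e-15), and CDK4 and CCNE2 were 2.03-fold and 3.72-fold higher in SW480-P (adjusted p = 8.08e-13 and 2.36e-12). In LV5-NID1 cells 3 of 16 were lower and 0 higher than in LV5, beside 9.32% and 7.27% of all genes. In this list 5 were lower without LV5-NID1 replicate 3, and 1 without LV5-NID1 replicate 2, without any 1 LV5 library or with a replicate block. Removing the GC trend or dropping the low filter also left 1 lower. CCND3 had 44.1, 42.2 and 33.4 TPM against 98.9, 104 and 102 TPM in LV5 libraries (adjusted p = 0.00201), CDKN1C (p57) fell by 0.72 on the log2 scale (adjusted p = 0.0225) and CDKN2D by 0.33 (adjusted p = 0.0346).

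Marker lists were read by their most abundant gene. KRT8 averaged 7410 CPM-like signal in SW480-LM3 and 1850 in SW480-P, and KRT18 185 TPM in EV-XP-NID1-LX-2, 199 TPM in EV-XP-LX-2, 546 TPM in LV5-NID1 and 861 TPM in LV5 cells. Summed leukocyte markers were 16.7 to 23.0 TPM in EV-XP-NID1-LX-2 against 43.9 to 48.1 TPM in EV-XP-LX-2 libraries, nearly all of it CD68, a lysosomal protein. The hepatocyte list's SERPINA1 and the endothelial list's ROBO4 fell in the same comparison, by 0.62 and 0.44 on the log2 scale (adjusted p = 0.000572 and 0.00411). Their part in the results of the same comparison was not tested.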
